A study of Homo sapiens with 4 samples.

Results

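The genes described here encode the machinery that shortens, decaps and degrades cytoplasmic mRNA, together with factors of nonsense-mediated decay (NMD), the pathway that removes mRNAs ending translation too early. The 49 genes were taken as a named list, matched by gene symbol, and all 49 were found among the 19192 genes counted in each library. They were compared between 2 lines derived from SW480, a widely used human cell line grown from a colorectal adenocarcinoma. The line of interest was labelled LIN28B OE+IMP1-/- knockout: the label gives it overexpression of LIN28B, an RNA-binding protein that blocks maturation of let-7 microRNAs, and a knockout of IMP1, the mRNA-binding protein encoded by IGF2BP1. Its comparator was labelled LIN28B OE, so both labels name LIN28B overexpression. Each line gave 1 library of ribosome footprints and 1 library of randomly fragmented total RNA, each from 3 pooled culture plates. The vector that drives LIN28B, the way IMP1 was disrupted, and whether either line is a clone are not stated in the labels.

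Total counts were 6813372 in the knockout-labelled RNA library and 5429224 in the OE-labelled RNA library. The footprint libraries held 3260262 counts (knockout-labelled) and 2732760 counts (OE-labelled). IGF2BP1, the gene named as knocked out, had 1974 RNA counts in the knockout-labelled library, against 840 in the OE-labelled library (log2 ratio 0.79), and 821 footprints against 332, so it was higher where the label says it was lost. LIN28B had 303 RNA counts in the knockout-labelled library, against 1205 in the OE-labelled one (log2 ratio -2.43), and 46 footprints against 190. The lines are therefore called by their labels, and no ratio below is a measured loss of IMP1. Whether the labels were exchanged was not tested; if they were, the sign of every ratio between the lines, and each higher or lower drawn from it, would turn round. Of 11 markers of simple and colonic epithelium, 3 (KRT20, CDX1 and LGALS4) had no count in any library. The summed RNA level of the 11 was 5161 CPM (counts scaled to library size; knockout-labelled) and 10027 CPM (OE-labelled). KRT8 and KRT18 gave most of both sums. Of the 7 markers with enough counts for an mRNA ratio, 6 had a log2 ratio below 0. CDH1 alone lay above 0, at 0.89, with 614 RNA counts (knockout-labelled) against 243 (OE-labelled). The CDH1 footprint ratio was 1.11, while the other 5 markers with a footprint ratio were below 0. Markers of leukocytes (PTPRC at 0 in all libraries), of fibroblasts, endothelium and muscle, and of neural cells summed to 24.5, 39.8 and 56.9 CPM in the knockout-labelled RNA library and to 12.2, 25.8 and 82.5 CPM in the OE-labelled one. CD68 gave most of the leukocyte counts, with 163 RNA counts (knockout-labelled) against 58 (OE-labelled), a log2 ratio of 1.04. CD68 footprints numbered 104 against 35 in the same order. COL1A1 had 55 RNA counts against 2, and 57 footprints against 0. Of the list with COL1A1, only PDGFRB had fewer RNA counts in the knockout-labelled library, 6 against 11. The neural markers TUBB3 and NES had mRNA log2 ratios of -0.87 and -0.52. The part of these markers in the differences below was not tested. With 1 library per line and assay there is no replicate check and no test. The 95% intervals cover counting error only, and in such bulk samples fewer expressing cells and less RNA per cell cannot be told apart.

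Cytoplasmic mRNA decay usually begins with loss of the poly(A) tail, first by the PAN2-PAN3 nuclease and then by the CCR4-NOT complex. The shortened mRNA is either decapped by DCP2 with its activators and degraded from its 5′ end by XRN1, or degraded from its 3′ end by the RNA exosome. MicroRNAs feed mRNAs into the same route, because TNRC6 proteins link Argonaute to the deadenylases. In NMD, the helicase UPF1 is phosphorylated by the kinase SMG1 and recruits the endonuclease SMG6 or the adaptor SMG5.

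Most of the 49 genes lay within 1.5-fold between the lines in mRNA and in footprints, and single genes of every role group lay outside it in at least one of the measures. A gene was counted as measured at a mean of at least 50 counts over the 2 libraries of an assay, and as higher or lower at a 1.5-fold difference or more. In mRNA all 49 were measured, with a median log2 ratio (knockout-labelled over OE-labelled) of 0.10 against 0.01 for all 9855 measured genes. Of the 49, 6 were higher (12.2%, against 10.5% of all genes) and 3 lower (6.12%, against 10.5%). Scaled by total counts instead of trimmed means, 8 were higher and 2 lower, but the median of all genes then rose to 0.13 as well. Footprints were measured for 45 of the genes and not for DCP1B, LSM1, PAN3 and TNRC6C. Of the 45, 6 were higher (13.3%, against 15% of 7323 genes) and 4 lower (8.89%, against 14%), and the median was 0.16 against 0.02. With a minimum of 200 counts the footprint median of the members turned to -0.17, against 0.02 for all genes, and 0 of 17 were higher. The share of all genes higher at that minimum was not taken, and the 15% above does not apply to it. Translational efficiency is taken here as the footprint ratio divided by the mRNA ratio. It was higher for 7 of the 45 genes (15.6%, against 13.4% of 7260 genes) and lower for 5 (11.1%, against 12.9%), with a median of -0.04. At 2-fold, 1 gene was higher and 1 lower in mRNA (2.99% and 3.49% of all genes), 4 were higher and 2 lower in footprints (4.66% and 4.44%), and 3 were higher and 1 lower in efficiency (3.65% and 3.6%). The 4 genes 2-fold higher in footprints were DCP2, TNRC6B, PAN2 and UPF3A.

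**Figure D1:**
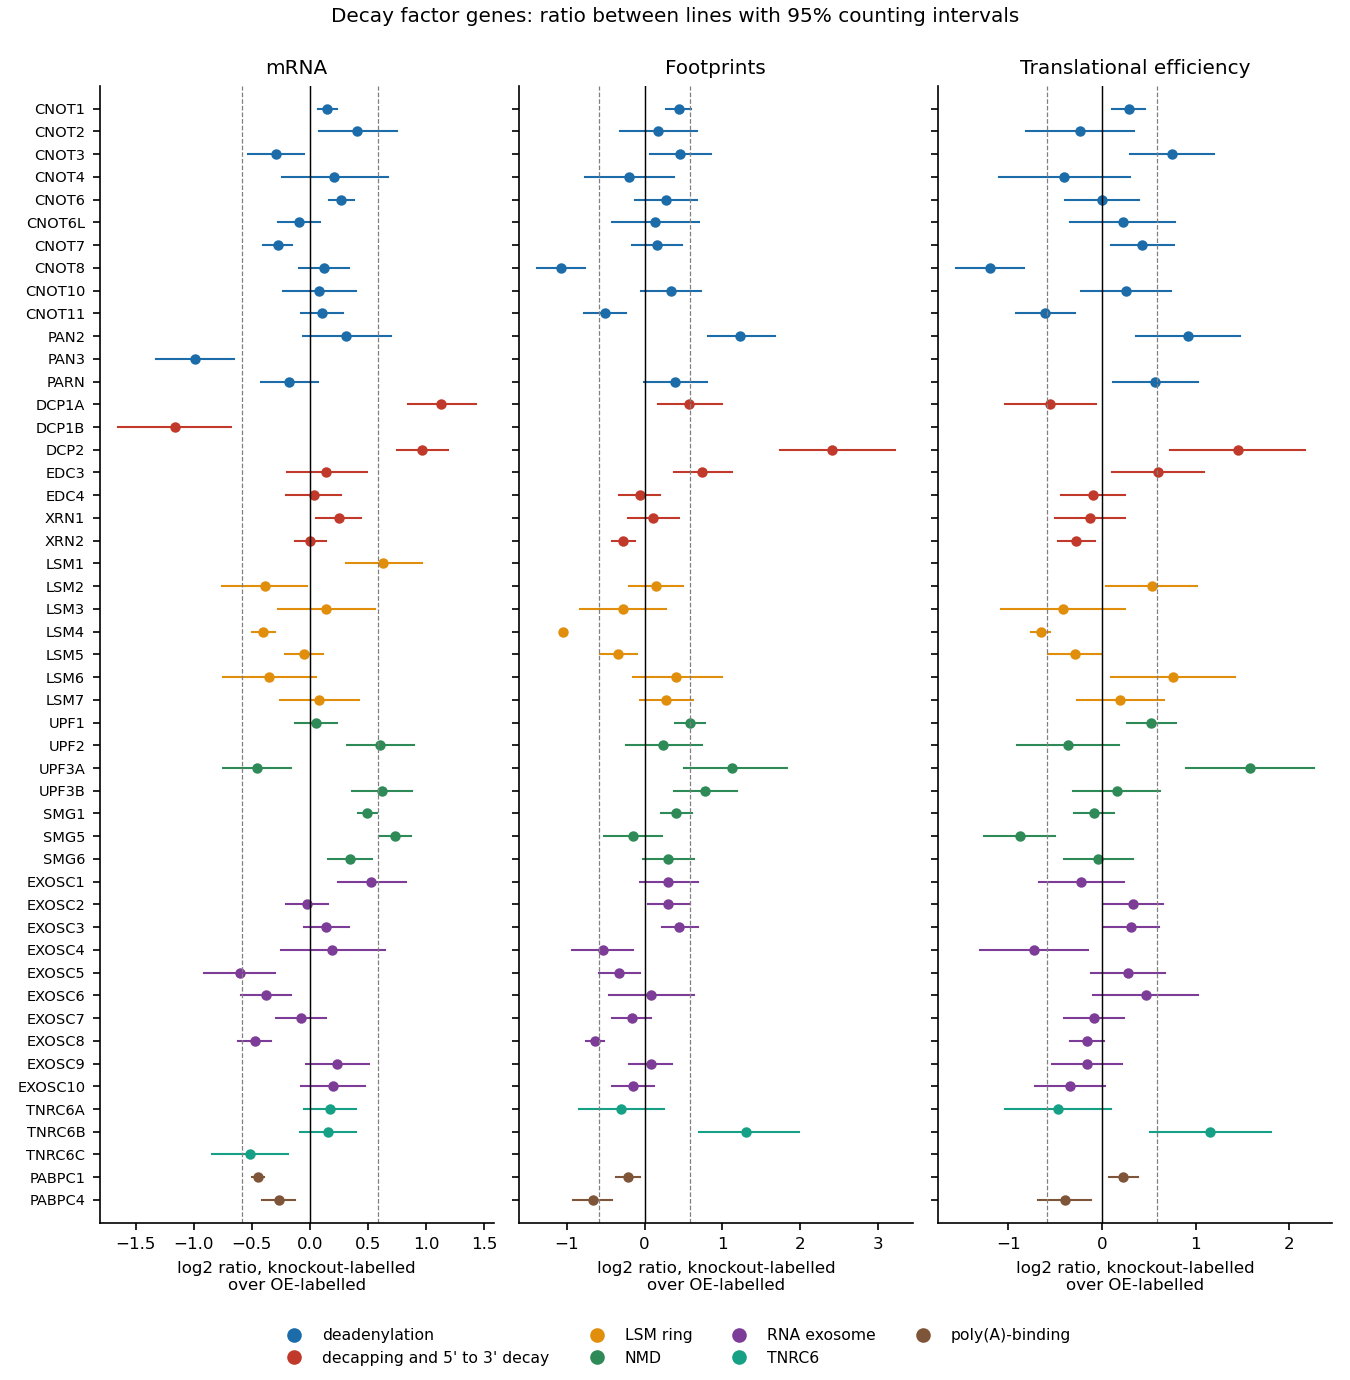
Log2 ratio, knockout-labelled over OE-labelled, for each of the 49 genes, in mRNA, footprints and translational efficiency; points are ratios, bars 95% counting intervals, colours the role, and dashed lines mark 1.5-fold. DCP2 stands at 0.96 in mRNA and 2.41 in footprints, and CNOT8 at -1.08 in footprints; genes with no point were not measured.

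mRNA and footprint ratios of the 45 genes did not always share a sign. Both were above 0 for 19 genes and both below 0 for 7, while 10 had the mRNA ratio above and the footprint ratio below 0 and 9 the reverse. Across the genes, as a description, Pearson's r was 0.40 and Spearman's rho 0.32, against 0.51 and 0.41 across all 7260 genes. Genes share libraries and are not replicates. Within 1.5-fold in both measures lay 31 of the 45. Neither the sign counts nor this count was taken over all genes, so they cannot be called particular to these genes.

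**Figure D2:**
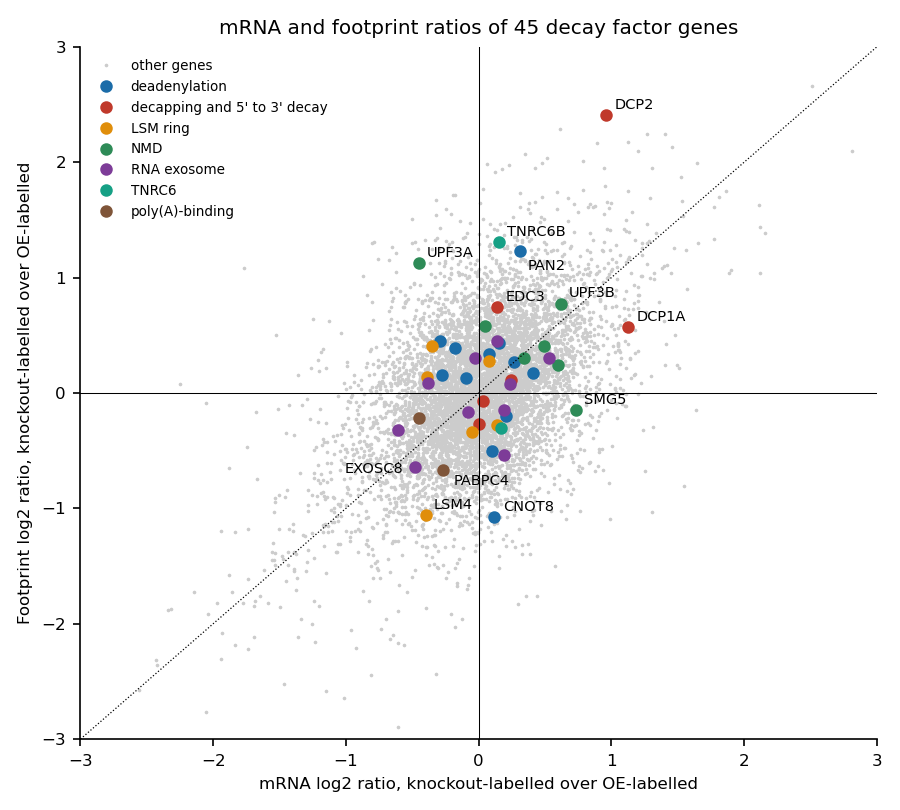
Footprint log2 ratio against mRNA log2 ratio, knockout-labelled over OE-labelled, for 45 decay factor genes (coloured by role) and all other genes measured in both assays (grey; 8 genes lie outside the axes); the dotted line marks equal ratios. DCP2 lies far above the line with both ratios positive, whereas CNOT8 and SMG5 lie below it.

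The 6 genes with the largest efficiency differences in either direction were UPF3A, DCP2, CNOT8, TNRC6B, PAN2 and SMG5. Their start codons are shown because the coding sequence that ribosomes translate begins there. Whether footprints were counted over that sequence only is not stated. Each line gives 12 bases before the start codon, the codon in capitals and 9 bases after it, in the orientation of the mRNA, from the listed transcript in GENCODE 29 (GRCh38).
UPF3A: ggagagtgcggcATGcgctcggaa
DCP2: tgggtcctcatcATGgagaccaaa
TNRC6B: aaatctgttcccATGcaaaccaat
PAN2: gccatcgtcatcATGaactttgag
CNOT8: ggtttcttcaggATGcctgcagca
SMG5: gacccgggcaccATGagccaaggc
The start codons lie at chr13:114281640-114281642 on the plus strand (UPF3A), chr5:112976934-112976936 plus (DCP2), chr22:40125818-40125820 plus (TNRC6B), chr12:56333092-56333094 minus (PAN2), chr5:154863279-154863281 plus (CNOT8) and chr1:156282678-156282680 minus (SMG5). A purine stood 3 bases before the codon in every one except TNRC6B, as it did in 85.4% of 18035 genes. A G directly after the codon was found in DCP2 only, against 51.0% of all genes. The 5′ leader held no ATG in UPF3A, 1 in DCP2, TNRC6B and SMG5, 2 in CNOT8 and 3 in PAN2. The first 4 of the genes listed were higher in efficiency and the last 2 lower; the contexts are a description only.

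Among the deadenylation genes, CNOT8 and PAN2 stood apart in footprints and PAN3 in mRNA. CNOT8 encodes a CCR4-NOT nuclease related to CNOT7. It had 451 RNA counts in the knockout-labelled library and 305 in the OE-labelled library, and 140 footprints against 244. The mRNA log2 ratio was 0.12 (95% interval -0.09 to 0.33), whereas footprints were 2.11-fold lower (log2 ratio -1.08, -1.39 to -0.77). Its efficiency ratio of -1.19 (-1.56 to -0.83) placed it at the 1.83rd percentile of all genes. CNOT7, which shares 64.7% of its 18-base coding windows with transcripts of other genes, mostly a pseudogene, had efficiency in the other direction within 1.5-fold (log2 0.43, 0.09 to 0.77). Its counts were 1091 and 189 (knockout-labelled RNA and footprints) against 971 and 140 (OE-labelled). The paralogues CNOT7 and CNOT8 thus had footprint ratios of 0.16 and -1.08.

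PAN2 encodes the catalytic subunit of the PAN2-PAN3 deadenylase and PAN3 the subunit that ties it to poly(A)-binding protein. PAN2 had 159 RNA counts and 177 footprints in the knockout-labelled line, against 94 and 62 in the OE-labelled line. Its footprints were 2.34-fold higher (log2 ratio 1.23, 0.81 to 1.68), with an mRNA ratio of 0.31 (-0.06 to 0.70) and an efficiency ratio of 0.92 (0.36 to 1.47). PAN3 showed 127 RNA counts in the knockout-labelled library, against 185 in the OE-labelled library, and was 1.98-fold lower in mRNA (log2 ratio -0.99, -1.32 to -0.65). The 40 measured neighbours of PAN3 on chromosome 13, up to 20 on each side, had a median mRNA ratio of -0.32. PAN3 footprints numbered 46 in the knockout-labelled library and 52 in the OE-labelled library, under the count minimum. PARN, a poly(A)-specific ribonuclease, had ratios of -0.18 (mRNA) and 0.39 (footprints).

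The remaining CCR4-NOT genes lay within 1.5-fold in mRNA and footprints. CNOT1, the scaffold on which the complex assembles and the gene of the group with most RNA, had 2821 RNA counts and 887 footprints in the knockout-labelled line, against 1867 and 541 in the OE-labelled line. Its mRNA ratio was 0.15 (0.07 to 0.24) and its footprint ratio 0.44 (0.28 to 0.59). CNOT3, a subunit of the NOT module, crossed the threshold in efficiency. It had 306 RNA counts and 148 footprints in the knockout-labelled line, against 275 and 89 in the OE-labelled line, with log2 ratios of -0.29 in mRNA, 0.45 in footprints and 0.75 in efficiency (0.30 to 1.19). CNOT11, which forms a module with CNOT10, crossed it in the other direction. It had 622 RNA counts and 214 footprints in the knockout-labelled line, against 426 and 251 in the OE-labelled line, with log2 ratios of 0.10 in mRNA, -0.51 in footprints and -0.61 in efficiency (-0.92 to -0.29). CNOT11 efficiency lay inside 1.5-fold under upper-quartile scaling. The nuclease genes CNOT6 and CNOT6L had mRNA ratios of 0.27 and -0.10 and efficiency ratios of -0.00 and 0.22. The subunit gene CNOT2, the ubiquitin ligase gene CNOT4 and CNOT10 had mRNA ratios of 0.41, 0.21 and 0.08 and footprint ratios of 0.17, -0.20 and 0.34. Over the 13 deadenylation genes the mRNA median was 0.10, with none higher and 1 lower (7.69%), against 10.5% of all genes in each direction.

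**Figure D3:**
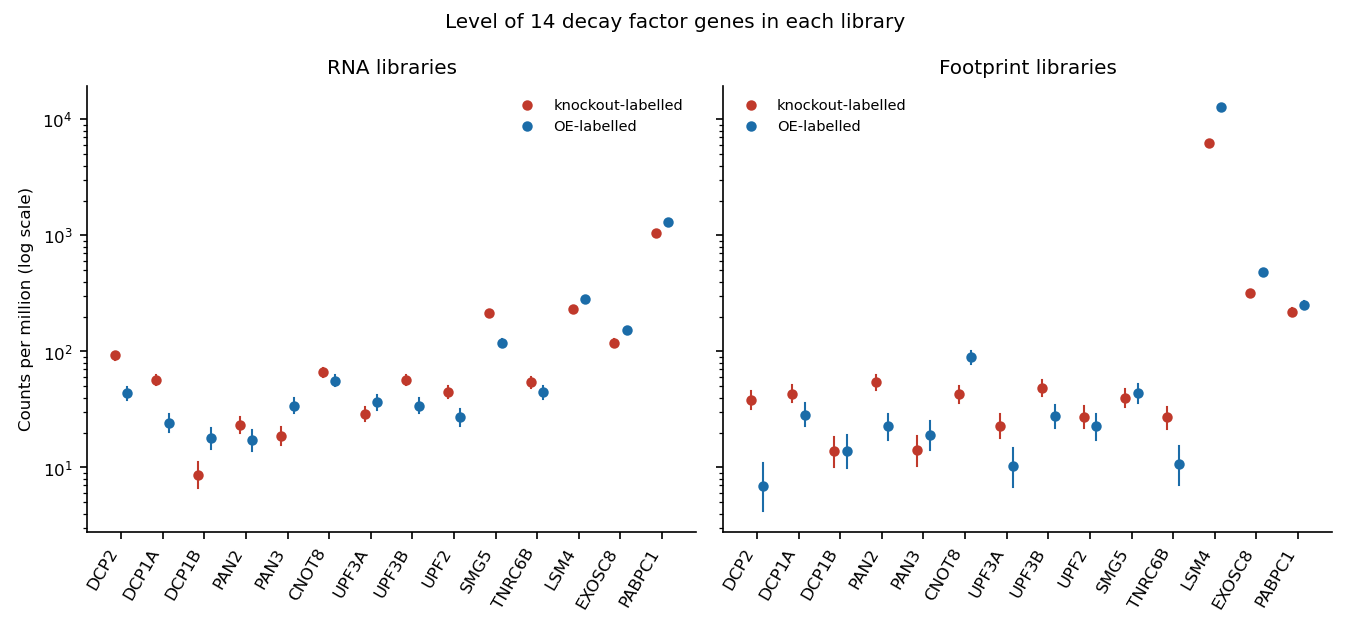
CPM (log scale) of 14 decay factor genes in the RNA libraries (left panel) and footprint libraries (right panel), knockout-labelled left of OE-labelled for each gene; bars are exact 95% Poisson intervals. LSM4 footprints lie far above those of the other genes, and DCP2 differs between the lines in both panels.

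In decapping, transcripts of the enzyme and of its principal activator were more abundant in the knockout-labelled line. DCP2, the decapping enzyme, had 629 RNA counts in the knockout-labelled library and 237 in the OE-labelled library, a 1.95-fold difference (log2 ratio 0.96, 0.75 to 1.19). DCP2 footprints numbered 125 in the knockout-labelled library and 19 in the OE-labelled library, which is 5.31-fold higher (log2 ratio 2.41, 1.74 to 3.22) and above 99.9% of measured genes. The efficiency ratio was 1.45 (0.73 to 2.17), with an interval set mainly by the 19 footprints of the OE-labelled library. DCP1A, the activator that binds DCP2, had 390 RNA counts in the knockout-labelled library, against 131 in the OE-labelled library, and was 2.18-fold higher (log2 ratio 1.13, 0.84 to 1.43). Its footprints numbered 141 in the knockout-labelled library and 78 in the OE-labelled library, a ratio of 0.57 (0.17 to 1.00). That lay just inside 1.5-fold and passed it under total-count and upper-quartile scaling. DCP1B, the paralogue of DCP1A, differed the other way, with 59 RNA counts in the knockout-labelled library and 97 in the OE-labelled library (2.23-fold lower; log2 ratio -1.16, -1.65 to -0.68). Footprints of DCP1B, 45 (knockout-labelled) and 38 (OE-labelled), were under the minimum.

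The scaffold gene EDC3 had 176 RNA counts and 187 footprints in the knockout-labelled line, against 117 and 92 in the OE-labelled line. Its footprints were 1.67-fold higher (log2 ratio 0.74, 0.38 to 1.12), with an mRNA ratio of 0.14 (-0.20 to 0.49). The efficiency ratio of EDC3, 0.60, lay inside 1.5-fold under total-count scaling. EDC4, the large scaffold of the decapping complex, had ratios of 0.03 and -0.07 in mRNA and footprints, and shares 21.5% of its 18-base coding windows with other genes. The exonuclease genes were close to 0: XRN1, which degrades decapped mRNA, had ratios of 0.25 in mRNA and 0.11 in footprints, and the nuclear XRN2 had 0.00 and -0.27. XRN2 had 1095 RNA counts and 729 footprints in the knockout-labelled line, against 803 and 727 in the OE-labelled line.

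The LSM1 to LSM7 ring binds the shortened tail and promotes decapping, and LSM2 to LSM7 also form part of a nuclear ring on U6 RNA. In mRNA LSM1, the subunit specific to the cytoplasmic ring, was 1.55-fold higher, with 243 counts in the knockout-labelled library and 115 in the OE-labelled library (log2 ratio 0.63, 0.31 to 0.97). LSM1 footprints, 50 (knockout-labelled) and 34 (OE-labelled), were under the minimum. The other 6 had mRNA ratios from -0.40 (LSM4) to 0.14 (LSM3). In footprints LSM2, LSM3, LSM5 and LSM7 had ratios of 0.14, -0.28, -0.34 and 0.27. LSM3 shares 64.0% of its 18-base coding windows with other genes and LSM2 25.1%, so their counts are uncertain. LSM6 crossed 1.5-fold in efficiency (0.76, 0.10 to 1.42), with 111 RNA counts and 71 footprints in the knockout-labelled line, against 104 and 44 in the OE-labelled line. The group's mRNA median of -0.05 turned positive, up to 0.07, under total-count scaling, where the median of all genes was 0.13.

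LSM4 held by far the most footprints of the 49 genes. It had 20449 footprints in the knockout-labelled library and 35110 in the OE-labelled library, on 1584 and 1535 RNA counts. It took 0.627% of all footprints in the knockout-labelled library, where it ranked 4 among all genes, and 1.28% in the OE-labelled library, where it ranked 3. Of the RNA counts it took 0.0232% and 0.0283%. Its log2 ratio of footprints over RNA was 4.84 (knockout-labelled, 4.77 to 4.92) and 5.50 (OE-labelled, 5.43 to 5.57), the highest of all 7260 genes in both lines. Between the lines LSM4 footprints were 2.08-fold lower (log2 ratio -1.06, -1.08 to -1.03) and mRNA 1.32-fold lower (-0.40, -0.50 to -0.30). Without LSM4 the other 48 genes held 0.33% of footprints in each line, while with it the 49 held 0.96% (knockout-labelled) and 1.61% (OE-labelled).

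Exon 4 of 5 of LSM4 is shown because this footprint count stands apart and the exon holds coding stretches that also occur elsewhere in the transcriptome. It spans 184 bases at chr19:18309678-18309861 on the minus strand (GRCh38, GENCODE 29). Capitals mark the 60 bases inside 18-base windows that also occur in transcripts of other genes, 12 such genes in all.
LSM4 exon 4: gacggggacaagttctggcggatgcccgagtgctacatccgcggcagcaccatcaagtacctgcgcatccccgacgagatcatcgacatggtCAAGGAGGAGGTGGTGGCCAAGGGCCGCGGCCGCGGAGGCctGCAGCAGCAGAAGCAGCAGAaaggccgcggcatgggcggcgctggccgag
Of all 403 coding windows of 18 bases in LSM4, 7 (1.74%) were shared with another gene, and of 393 windows of 28 bases none was. None of 7597 transcripts of ribosomal, small nuclear, small nucleolar and other small RNA classes shared an 18-base window with the LSM4 transcript. The search took exact matches in the same orientation only, so matches with mismatches or on the opposite strand were not looked for. It covered only transcripts of these classes present in GENCODE 29, and which ribosomal RNAs these include was not checked. Nuclear-encoded tRNAs were not among the classes searched, so a match outside this set was not looked for. The counts are per gene, so the position of the footprints along LSM4 is not known, and the origin of the excess was not tested.

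NMD was the role group with the highest mRNA median, 0.49 over 7 genes (0.47 to 0.61 over the scalings), and its footprint median was 0.41. Of the 7, 3 were higher (42.9%, against 10.5% of all genes) and none lower (against 10.5%) in mRNA. SMG1, the kinase that phosphorylates UPF1, had the most RNA: 3567 counts in the knockout-labelled library and 1863 in the OE-labelled library, with 538 and 335 footprints. Its ratios were 0.49 (0.41 to 0.57) in mRNA and 0.41 (0.21 to 0.61) in footprints, and the mRNA ratio passed 1.5-fold under total-count scaling. SMG1 shares 33.4% of its 18-base coding windows with other genes, chiefly SMG1 pseudogenes, so its counts are uncertain. Both medians of the group are the ratios of SMG1 itself.

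SMG5, the adaptor that recruits decay enzymes to phosphorylated UPF1, had 1461 RNA counts in the knockout-labelled library and 646 in the OE-labelled library, 1.66-fold higher (log2 ratio 0.73, 0.60 to 0.87). Its footprints numbered 130 in the knockout-labelled library and 119 in the OE-labelled library, a ratio of -0.15 (-0.52 to 0.22). The efficiency ratio of SMG5 was accordingly -0.88 (-1.26 to -0.50). UPF2, which bridges UPF1 to UPF3 proteins, had 304 RNA counts and 89 footprints in the knockout-labelled line, against 147 and 62 in the OE-labelled line. Its mRNA ratio of 0.60 (0.31 to 0.90) was near the threshold and lay inside it under upper-quartile scaling, and its footprint ratio was 0.24 (-0.24 to 0.74).

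The paralogues UPF3A and UPF3B, which link UPF2 to the exon junction complex, differed in their patterns. UPF3B had 387 RNA counts and 158 footprints in the knockout-labelled line, against 185 and 76 in the OE-labelled line. It was higher in mRNA (1.54-fold; log2 ratio 0.62, 0.36 to 0.88) and footprints (1.71-fold; 0.77, 0.38 to 1.19). The mRNA ratio of UPF3B lay inside 1.5-fold once the median of its chromosomal neighbours was subtracted. UPF3A had 197 RNA counts and 75 footprints in the knockout-labelled line, against 198 and 28 in the OE-labelled line. After scaling its log2 ratios were -0.45 (-0.74 to -0.16) in mRNA and 1.13 (0.50 to 1.83) in footprints. Its efficiency ratio of 1.58 (0.90 to 2.26) was the highest of the 45 genes. UPF3A shares 71.1% of its 18-base coding windows with other genes, mostly with pseudogenes of its own, and its counts are uncertain to that extent. UPF1 had 603 footprints in the knockout-labelled library and 333 in the OE-labelled library, a ratio of 0.58 (0.38 to 0.78), just under 1.5-fold, while its mRNA ratio was 0.05. SMG6, the endonuclease of NMD, had ratios of 0.34 (0.16 to 0.53) and 0.30 (-0.02 to 0.64).

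The exosome genes were nearly flat, with medians of 0.06 in mRNA and -0.04 in footprints over 10 genes. EXOSC8, a core ring subunit and the most abundant of the group, had 808 RNA counts and 1033 footprints in the knockout-labelled line, against 826 and 1330 in the OE-labelled line. Its footprints were 1.56-fold lower (log2 ratio -0.64, -0.76 to -0.52) and its mRNA ratio was -0.48 (-0.62 to -0.33). Its chromosome 13 neighbours had a median mRNA ratio of -0.30 and a median footprint ratio of -0.16. EXOSC5, another ring subunit, had 170 RNA counts in the knockout-labelled library and 190 in the OE-labelled library, 1.52-fold lower (log2 ratio -0.60, -0.91 to -0.30), and lay inside 1.5-fold under total-count scaling. EXOSC4 had 109 RNA counts and 100 footprints in the knockout-labelled line, against 70 and 120 in the OE-labelled line, with an efficiency ratio of -0.73 (-1.31 to -0.15). EXOSC10, a catalytic subunit, had ratios of 0.20 in mRNA and -0.15 in footprints. Of the others, EXOSC1, EXOSC2, EXOSC3, EXOSC6, EXOSC7 and EXOSC9, mRNA ratios ran from -0.38 (EXOSC6) to 0.53 (EXOSC1) and footprint ratios from -0.17 (EXOSC7) to 0.45 (EXOSC3). EXOSC3 shares 37.2% of its 18-base coding windows with other genes, and its counts are uncertain to that extent.

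Subunits of one complex did not have equal footprint levels, taken per coding length although the counted part of the transcript is not stated. In footprint CPM per kilobase of coding sequence, the exosome core EXOSC1 to EXOSC9 ran from 25.1 (EXOSC6) to 381 (EXOSC8) in the knockout-labelled line and from 23.2 to 586, in the same genes, in the OE-labelled line. The CCR4-NOT genes ran from 8.79 (CNOT4) to 67.6 (CNOT7) in the knockout-labelled line and from 9.91 (CNOT4) to 102 (CNOT8) in the OE-labelled line. In the LSM ring, LSM1 was lowest at 38.1 (knockout-labelled) and 30.9 (OE-labelled), and LSM5 the highest apart from LSM4 at 317 and 395, whereas LSM4 stood at 14934 (knockout-labelled) and 30590 (OE-labelled).

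**Figure D4:**
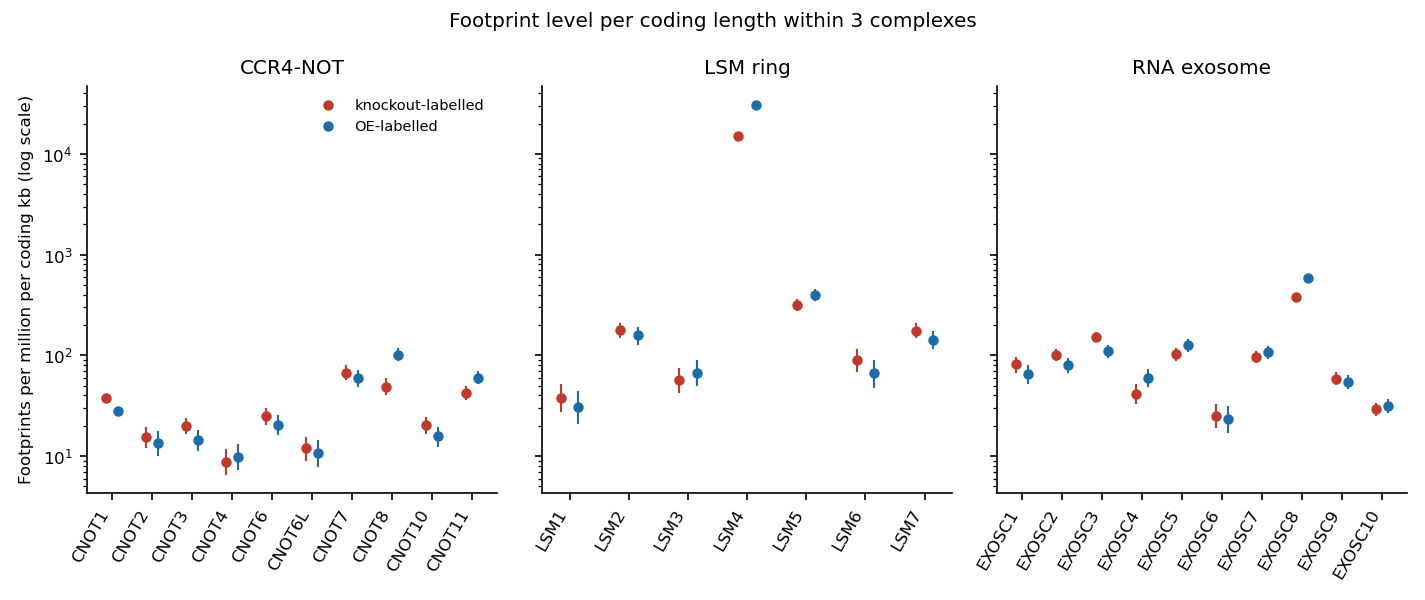
Footprint CPM per kilobase of coding sequence (log scale) for CCR4-NOT, LSM ring and exosome genes, knockout-labelled left of OE-labelled for each gene; bars are exact 95% Poisson intervals. LSM4 lies at 14934 (knockout-labelled) and 30590 (OE-labelled), and no other gene shown exceeds 586.

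TNRC6 proteins bind Argonaute and recruit the deadenylases to microRNA targets. TNRC6B had 368 RNA counts and 88 footprints in the knockout-labelled line, against 243 and 29 in the OE-labelled line. Its footprints were 2.48-fold higher (log2 ratio 1.31, 0.71 to 1.98) on an mRNA ratio of 0.15 (-0.08 to 0.39), and its efficiency ratio was 1.16 (0.51 to 1.80). TNRC6A, the gene of the group with most RNA, had 417 RNA counts and 58 footprints in the knockout-labelled line, against 272 and 59 in the OE-labelled line, with ratios of 0.17 (-0.05 to 0.40) in mRNA and -0.30 (-0.85 to 0.25) in footprints. TNRC6C mRNA had a ratio of -0.52 (-0.84 to -0.19), and its footprints, 37 (knockout-labelled) and 17 (OE-labelled), were under the minimum.

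The poly(A)-binding genes were on the lower side in both assays. PABPC1, the main cytoplasmic poly(A)-binding protein, had 7139 RNA counts and 712 footprints in the knockout-labelled line, against 7149 and 684 in the OE-labelled line. After scaling, its ratios were -0.45 (-0.49 to -0.40) in mRNA and -0.22 (-0.37 to -0.06) in footprints. PABPC1 shares 76.2% of its 18-base coding windows with other genes, PABPC3 first among them. PABPC4, an inducible relative, had 867 RNA counts and 239 footprints in the knockout-labelled line, against 768 and 314 in the OE-labelled line. Its footprints were 1.59-fold lower (log2 ratio -0.67, -0.92 to -0.42) and its mRNA ratio was -0.27 (-0.41 to -0.13). PABPC4 shares 15.8% of its 18-base coding windows with other genes.

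Within each line, footprints over RNA covered a wide range among these genes. Leaving out LSM4, the log2 ratio ran from -2.57 (CNOT6) to 1.63 (EXOSC5) in the knockout-labelled line and from -2.62 (DCP2) to 1.76 (EXOSC4) in the OE-labelled line. The medians with LSM4 were -0.03 (knockout-labelled) and 0.12 (OE-labelled), against 0.28 and 0.26 for all genes. With a minimum of 200 counts the medians were 0.57 (knockout-labelled) and 0.49 (OE-labelled), against 0.61 and 0.57 for all genes. In the knockout-labelled line 14 of 45 genes were at least 1.5-fold above equal footprint and RNA shares (36.6% of all genes) and 12 at least 1.5-fold below (22.1%). In the OE-labelled line the counts were 14 (34.8%) and 14 (21.3%). At 2-fold the counts were 9 above (19.7% of all genes) and 9 below (13.4%) in the knockout-labelled line, and 6 above (18.2%) and 11 below (12.7%) in the OE-labelled line. Under upper-quartile scaling the knockout-labelled line had 17 above and 10 below, with the median of all genes at 0.40 instead of 0.28.

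CNOT6 was among the lowest in both lines, at -2.57 (knockout-labelled) and -2.56 (OE-labelled), with 1796 RNA counts and 136 footprints in the knockout-labelled line, against 1094 and 93 in the OE-labelled line. CNOT6L had 571 RNA counts and 65 footprints in the knockout-labelled line, against 448 and 49 in the OE-labelled line, which put it at -1.97 (knockout-labelled) and -2.20 (OE-labelled). CNOT6L shares 66.1% of its 18-base coding windows with other genes, nearly all of them with a pseudogene. PABPC1 stood at -2.17 (knockout-labelled) and -2.40 (OE-labelled), and CNOT7 at -1.37 and -1.81 in the same order. EXOSC6 had 367 RNA counts and 67 footprints in the knockout-labelled line, against 351 and 52 in the OE-labelled line, at -1.29 (knockout-labelled) and -1.76 (OE-labelled). SMG5 had -2.33 in the knockout-labelled line and -1.45 in the OE-labelled line. DCP2, TNRC6B and UPF3A differed the other way, at -1.17, -0.91 and -0.24 in the knockout-labelled line and at -2.62, -2.06 and -1.82 in the OE-labelled line. The exosome genes were on the high side, with 6 of 10 at least 1.5-fold above in each line. That is 60%, against 36.6% (knockout-labelled) and 34.8% (OE-labelled) of all genes. In each line 1 of the 10 was at least 1.5-fold below (10%, against 22.1% and 21.3%). Their medians were 0.82 (knockout-labelled) and 0.87 (OE-labelled), against 0.28 and 0.26 for all genes.

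Genes whose listed transcript has a long 3′ UTR had fewer footprints per RNA count. Across the 45 genes, as a description, Spearman's rho of footprints over RNA with 3′ UTR length was -0.69 (knockout-labelled) and -0.66 (OE-labelled), against -0.47 and -0.44 across 7252 genes. Whether RNA reads were counted over the whole transcript or over its coding part is not stated in the labels. The rho with the coding share of the transcript was 0.36 (knockout-labelled) and 0.39 (OE-labelled). TNRC6B, DCP2 and CNOT6L have the longest 3′ UTRs, of 12566, 7486 and 7044 bases, and EXOSC4 and EXOSC9 have 46 and 53 bases. PABPC1 and SMG5 were low with 3′ UTRs of 445 and 1363 bases, and LSM4 was high with 1234.

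**Figure D5:**
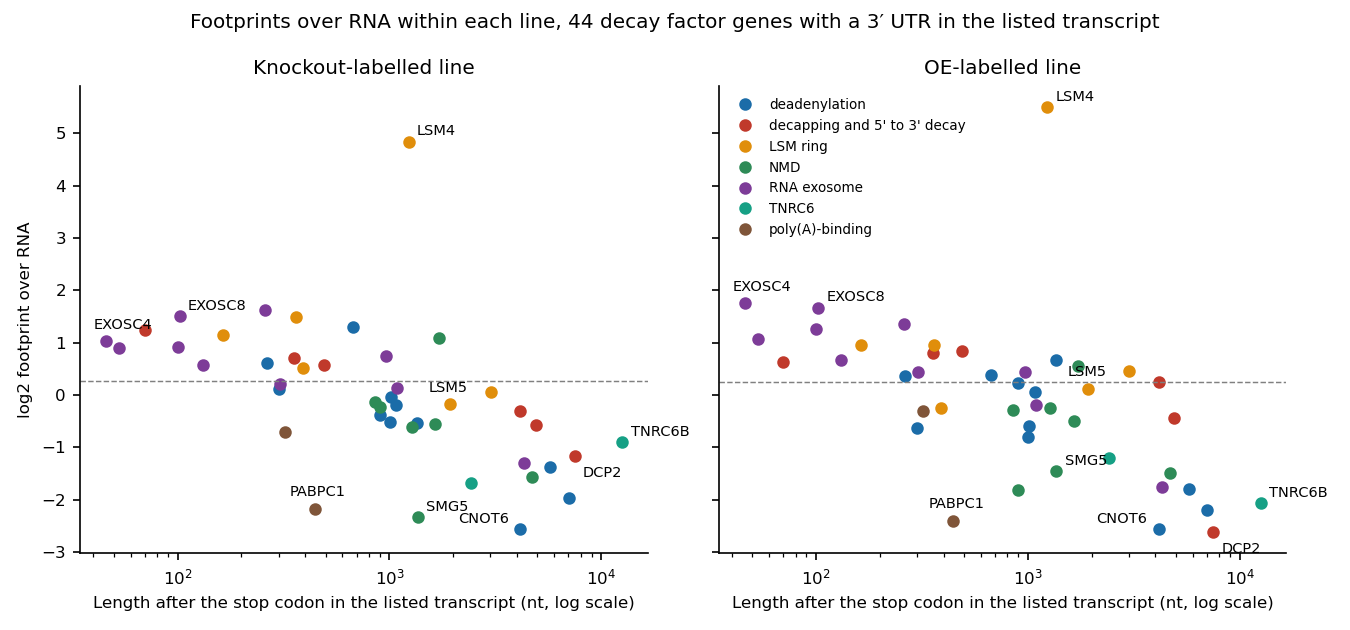
Log2 ratio of footprints over RNA within the knockout-labelled line (left panel) and the OE-labelled line (right panel) against 3′ UTR length of the listed transcript (bases, log scale) for 44 genes, CNOT4 having none; the dashed line is the median of all genes. EXOSC4, EXOSC5, EXOSC8, EXOSC9 and EXOSC10, with short 3′ UTRs, lie above the line, and DCP2, CNOT6 and TNRC6B, with long ones, below it; LSM4 lies apart from all.

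Other genes of the same pathways, in 5 further lists, were close to the background or below it. Some listed genes, among them AGO1, AGO2, ELAVL1 and RBM8A, were not found under the symbols used and are not covered. In mRNA 5 of 91 measured genes were higher (5.49%, against 10.5% of all genes) and 2 lower (2.2%, against 10.5%). In footprints 9 of 80 were higher and 9 lower (11.2% each, against 15% and 14% of all genes), and in efficiency 11 were higher (13.8%) and 9 lower (11.2%). Total-count scaling gave 10 higher and 2 lower in mRNA and 10 higher and 15 lower in efficiency. The medians of all genes then stood at 0.13 in mRNA and -0.10 in efficiency.

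Of the recruiters of deadenylation, none of 20 measured genes was past 1.5-fold in mRNA, against 10.5% of all genes in each direction. In footprints 3 of 16 were higher (18.8%, against 15%) and 2 lower (12.5%, against 14%), shares near those of all genes. BTG3, an antiproliferative protein that binds CCR4-NOT, had 79 footprints in the knockout-labelled library and 208 in the OE-labelled library (log2 ratio -1.67) on an mRNA ratio of -0.08. RQCD1, now called CNOT9 and a CCR4-NOT subunit itself, had a footprint ratio of 0.87, and the RNA-binding SAMD4B one of 0.70. ZFP36L2, which brings deadenylases to AU-rich mRNAs, had a footprint ratio of -0.61. Of the further decapping genes, 3 of 18 were higher in mRNA (16.7%, against 10.5% of all genes) and 1 of 15 lower in footprints (6.67%, against 14%): DXO, which removes faulty caps, at 1.20, the histone-processing genes LSM10 and LSM11 at 0.95 and 0.65, and NUDT3, a hydrolase, at -0.61 in footprints.

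Of the further NMD and exon junction genes, 1 of 17 was higher in mRNA (5.88%, against 10.5% of all genes), and in footprints 3 of 16 were higher (18.8%, against 15%) and 1 lower (6.25%, against 14%). SEC13, a coat and nuclear pore protein on that list, was higher in both, at 0.92 in mRNA and 0.81 in footprints. SMG8, a regulator of the SMG1 kinase, had 123 footprints in the knockout-labelled library and 52 in the OE-labelled library (log2 ratio 0.96) and an efficiency ratio of 1.44. CASC3, an exon junction protein, had a footprint ratio of 0.81, and NBAS one of -0.66. Of 18 exosome cofactors and related 3′ decay genes, 3 were higher (16.7%, against 15% of all genes) and 4 lower (22.2%, against 14%) in footprints, and 1 was lower in mRNA (5.56%, against 10.5%). HBS1L, a ribosome rescue factor, had 119 footprints in the knockout-labelled library and 186 in the OE-labelled library (log2 ratio -0.92) with an mRNA ratio of 0.06. ERI1, a histone mRNA exonuclease, had 257 footprints in the knockout-labelled library and 91 in the OE-labelled library (log2 ratio 1.22). ISG20L2 had a footprint ratio of 0.88, and PAPD5, a poly(A) polymerase of nuclear surveillance, one of -0.78.

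Among Argonaute, microRNA-processing and further poly(A)-binding genes, 1 of 18 was higher and 1 lower in mRNA (5.56% each, against 10.5% of all genes) and 1 of 15 lower in footprints (6.67%, against 14%). AGO1 and AGO2 were listed but not found under the symbols used, and AGO4 footprints were under the count minimum. PABPC1L had 168 RNA counts in the knockout-labelled library and 40 in the OE-labelled library (log2 ratio 1.61). PAIP1, a partner of PABPC1 in translation, had 362 RNA counts in the knockout-labelled library and 439 in the OE-labelled library (log2 ratio -0.72) but an efficiency ratio of 0.86 (0.49 to 1.23). PABPC3, a near copy of PABPC1 and uncertain for that reason, had a footprint ratio of -0.68. The efficiency median of the 15 was -0.36, with 1 higher (6.67%, against 13.4% of all genes) and 4 lower (26.7%, against 12.9%).

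Of mRNAs described as NMD substrates, 6 of 20 were higher (30%, against 10.5% of all genes) and 1 lower (5%, against 10.5%) in mRNA, with a median of 0.33. In footprints 5 of 19 were higher (26.3%, against 15% of all genes) and none lower (against 14%), with a median of 0.45. UPP1, uridine phosphorylase, had 2943 RNA counts in the knockout-labelled library and 820 in the OE-labelled library (log2 ratio 1.40) and a footprint ratio of 1.11. GADD45A, a stress-response gene, had 1925 RNA counts and 1929 footprints in the knockout-labelled line, against 706 and 507 in the OE-labelled line, with log2 ratios of 1.00 and 1.65. TRA2B, a splicing regulator with an unproductive isoform, had ratios of 0.90 in mRNA and 0.38 in footprints. ATF4, the transcription factor of the integrated stress response, had -0.21 in mRNA and 0.63 in footprints, with an efficiency ratio of 0.84 (0.73 to 0.96). Several of these genes also respond to stress, and gene counts do not separate their isoforms.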

How the data were processed

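The deposited values are whole-number read counts per gene, with 1 transcript listed per gene, per the file headers. Size selection kept 18 to 34 nt for footprints and 18 to 50 nt for RNA, rRNA was removed and the linkers held random identifiers, per the labels' protocols. The tools named are HISAT2 2.1.0, Bowtie 1.1.2 and cutadapt 1.10, on GRCh38, per the submitters' processing notes. Which counter was used, whether it used strand, which part of the transcript it counted and whether duplicates were collapsed is not given in the sources used here. Intervals would be too narrow had PCR copies been counted. One library's cell line label reads SW840 beside a source label of SW480, and was taken as SW480.

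Counts were scaled by TMM in edgeR 4.0.16 (R 4.3.3), within an assay for ratios between lines and within a line for footprints over RNA. Ratios carry 0.5 added to each count and exact conditional binomial 95% intervals; efficiency has Wald intervals from the 4 counts. No p-value was computed. The ratio and interval steps were tested on simulated Poisson counts with known fold changes, scaled by library totals. That simulation holds only the counting error that the intervals assume. The TMM, annotation and sequence steps were not tested in this way. Transcript structure came from GENCODE 29, in which 19176 of 19192 transcript identifiers were found, read with pandas 2.3.3 in Python 3.11.15; scipy 1.17.1 gave the intervals, and numpy 2.4.6 and matplotlib 3.10.9 were also used. The alternatives tried were size factors of DESeq2 1.42.0, upper-quartile factors, total counts, other count minimums, 5 added to each count and a 2-fold threshold. The members and lists were chosen with earlier results of these data known. Genes given in full passed 1.5-fold with an interval leaving out 0, lay over 4-fold from the median gene in footprints over RNA, or had the most RNA of their role; of each further list up to 4 genes past 1.5-fold were named, by summed count. Other members named with values were added for completeness of their complex.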

Additional observations from a re-analysis of the deposited data

How the results depend on the processing

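No paired analysis was possible because each line and assay has 1 library, and leaving out a replicate was not possible for the same reason. No direction of a named member past 1.5-fold was reversed. Of 1077 single values under alternatives, 1055 stayed within their counting interval and 22 moved outside it, with no change of sign among them. A count minimum decides only whether a gene is measured. Single values under the other minimums therefore stayed the same by design, and they are among the 1055. Of 69 values past 1.5-fold, 10 fell inside it under at least 1 alternative, and 7 other values passed it under at least 1. Total-count scaling shifted the median mRNA ratio of all genes to 0.13 and efficiency to -0.10. The share of all genes past the threshold was taken only under the main settings and at 2-fold. Counts of members and pathway genes under the other alternatives therefore have no background share beside them, and may move with the whole set of genes. At a threshold of 2-fold, 1 member was higher and 1 lower in mRNA, 2 were lower in footprints, 3 were higher and 1 lower in efficiency, and in footprints over RNA 9 were higher in the knockout-labelled line and 6 in the OE-labelled line. Of the further pathway genes at 2-fold, 2 of 91 were higher and 1 lower in mRNA (2.99% and 3.49% of all genes). In footprints 2 of 80 were higher and 1 lower (4.66% and 4.44% of all genes). In efficiency 1 of 80 was higher and 1 lower (3.65% and 3.6% of all genes). With a minimum of 200 counts fewer members were measured: 0 of 33 were lower in mRNA, 0 of 17 higher in footprints, and of 16, 0 were higher and 2 lower in efficiency. Footprints over RNA then had 7 higher and 3 lower members in each line, with medians of 0.57 (knockout-labelled) and 0.49 (OE-labelled), against 0.61 and 0.57 for all genes, and the footprint median of the members was -0.17. The pathway genes gave 1 higher and 1 lower in mRNA and in footprints, and 2 higher and 1 lower in efficiency. Total counts, with or without mitochondrially encoded genes, gave 10 pathway genes higher in mRNA and 15 lower in efficiency. A minimum of 10 counts gave 4 pathway genes lower in mRNA and no minimum gave 5, each with 14 lower in efficiency. Subtracting the median ratio of chromosomal neighbours, an alternative chosen after seeing the data, took LSM1, UPF3B and EXOSC5 mRNA and EXOSC8 footprints inside 1.5-fold. Leaving out LSM4, also chosen after seeing the data, could by design change a count by at most 1. The scaling was not recomputed without LSM4, so its effect on the ratios of other genes was not tested. Precision was limited by genes with few footprints, such as DCP2 with 19 and UPF3A with 28 in the OE-labelled library.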
